A study of Homo sapiens with 12 samples.

Results

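The promoters of CASP8AP2, NPAT, HINFP and SLBP, 4 genes whose products act on histone gene expression, were examined in ChIP-Seq lists of E2F1, CASP8AP2, NPAT and HINFP from U2OS and hTERT-RPE1 cells. In ChIP-Seq, DNA bound by a protein is recovered with an antibody and sequenced, and an unspecific IgG precipitation gives the background. U2OS cells come from an osteosarcoma, and hTERT-RPE1 cells are epithelial cells made immortal with hTERT. Each of the 8 libraries had 1 antibody (5 µg) and 1 cell line, without replicates. The labels name rabbit and goat IgG libraries as controls in each line. The E2F1, CASP8AP2 and NPAT lists of a line shared 1 IgG library by their highest IgG count, 14841 in hTERT-RPE1 and 27183 in U2OS, and the HINFP lists had another, with 10611 and 11560. Members were the regions listed in a library with a summit within 2 kb of a TSS, on NCBI36. The TSS were at position 90596349 of chromosome 6 for CASP8AP2, 107598579 of chromosome 11 for NPAT, 118497443 of chromosome 11 for HINFP and 1683839 of chromosome 4 for SLBP. This gave 36 of the 1636159 regions listed over all libraries. The NPAT window also covers the start of ATM, a kinase of the DNA damage response that is transcribed in the opposite direction. The identity of the lines could not be checked against marker genes, since the lists carry no expression values.

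Replication-dependent histone mRNAs are made in S phase and end in a stem-loop in place of a poly(A) tail. NPAT is a coactivator of these genes and a substrate of cyclin E-CDK2, and CASP8AP2, also known as FLASH, binds NPAT and takes part in histone pre-mRNA processing. HINFP is a zinc finger factor of histone H4 promoters, and SLBP binds the stem-loop of replication-dependent histone mRNAs. E2F1 belongs to the factors that switch on genes of the G1/S transition.

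The promoter sequences of the CASP8AP2 and SLBP genes are shown because E2F1 was enriched there, and those of NPAT and HINFP because it was not significant there. Each runs from 250 bp before to 50 bp after the RefSeq start on GRCh38.p14, read 5′ to 3′ along the gene. Their places are chr6:89829630-89829929 on the plus strand, chr4:1712270-1712569 on the minus strand, chr11:108222589-108222888 on the minus strand and chr11:119121330-119121629 on the plus strand, in the order printed. Capitals mark the E2F core TTNNCGC, with each N being C or G, on either strand.
CASP8AP2: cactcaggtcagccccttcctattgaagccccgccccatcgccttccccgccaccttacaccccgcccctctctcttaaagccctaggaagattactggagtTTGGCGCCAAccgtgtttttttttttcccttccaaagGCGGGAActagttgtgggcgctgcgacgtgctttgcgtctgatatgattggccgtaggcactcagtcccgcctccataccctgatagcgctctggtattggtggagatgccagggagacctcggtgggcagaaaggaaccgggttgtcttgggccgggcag
SLBP: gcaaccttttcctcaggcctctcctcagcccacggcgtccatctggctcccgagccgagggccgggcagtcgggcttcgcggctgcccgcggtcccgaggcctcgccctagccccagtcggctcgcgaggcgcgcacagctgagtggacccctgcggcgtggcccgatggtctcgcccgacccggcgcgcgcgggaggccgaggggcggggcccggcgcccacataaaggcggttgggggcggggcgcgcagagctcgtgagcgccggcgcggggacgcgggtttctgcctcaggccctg
NPAT: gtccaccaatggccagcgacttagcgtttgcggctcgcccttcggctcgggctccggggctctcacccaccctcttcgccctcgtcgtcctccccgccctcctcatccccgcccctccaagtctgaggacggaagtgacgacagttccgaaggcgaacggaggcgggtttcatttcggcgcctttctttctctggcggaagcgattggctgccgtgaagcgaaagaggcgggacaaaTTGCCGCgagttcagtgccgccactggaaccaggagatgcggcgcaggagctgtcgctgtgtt
HINFP: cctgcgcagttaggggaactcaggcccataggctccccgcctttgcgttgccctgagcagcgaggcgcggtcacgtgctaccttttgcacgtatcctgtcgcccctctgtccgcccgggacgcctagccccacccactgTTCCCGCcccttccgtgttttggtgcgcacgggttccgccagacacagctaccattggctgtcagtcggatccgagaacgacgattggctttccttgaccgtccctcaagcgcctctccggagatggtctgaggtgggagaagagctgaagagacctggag
The CASP8AP2 promoter held 3 matches. A pair of them overlaps in TTGGCGCCAA, which reads the same on both strands and lies from 148 to 139 bp before the RefSeq start, and the other lies from 111 to 105 bp before it. The NPAT and HINFP promoters held 1 match each, and the SLBP window held none. Of 35116 RefSeq promoters of the same length, 13.0% held at least 1 match and 0.214% held at least 3. The letters were chosen after the sequences had been seen, and a match is not evidence of a site. The SLBP promoter is the most GC-rich of these, at 76.7% against a median of 58.7% over all promoters, while the CASP8AP2 promoter has 58.3%.

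A significant region was found at 2 of the 4 promoters, CASP8AP2 and SLBP, and with E2F1 alone among the antibodies. Significant regions were those with a deposited p-value under 0.00001 whose fold change was above 2, the limits of the study's methods with the p read as an upper limit. Of all listed E2F1 regions, 0.707% passed in hTERT-RPE1 and 0.748% in U2OS cells, against 2 of 7 and 2 of 4 of the E2F1 regions at these promoters. The percentages cover every listed region, at promoters or elsewhere. The share among the regions of other promoters was not tested, so the contrast is not particular to these genes. No region of the other antibodies passed here. Their backgrounds were 0.112% and 0.0927% for CASP8AP2, 0.259% and 0.108% for NPAT, and 0.393% and 0.5% for HINFP, in hTERT-RPE1 and U2OS cells. The p-value compares 1 ChIP library with 1 IgG library, is not adjusted for the number of regions, and covers counting error only. Regions were listed only where at least 8 reads piled up in the ChIP library, so a ratio above 1 is built into the lists: the median region had a ChIP over IgG ratio between 1.83 and 2.5. Ratios here are (ChIP sequences + 1) / (IgG sequences + 1) unless a fold change is named, which also carries the library's scaling for depth.

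At the SLBP promoter, E2F1 had 218 ChIP and 13 IgG sequences in hTERT-RPE1 cells, in a region from 1683640 to 1684564 (chromosome 4, NCBI36). The ratio was 15.6, and the ChIP over IgG ratio without added counts had a 95% exact binomial interval of 9.60 to 32.0. Its fold change was 14.8 and its deposited p-value 2.92e-47, the lowest of the 214407 regions of this library. In U2OS cells E2F1 had 120 ChIP and 10 IgG sequences from 1683691 to 1684620, with a ratio of 11 (6.30 to 25.7), a fold change of 11.7 and a deposited p-value of 3.92e-27. This was rank 22 of 125446 by p-value. SLBP was among the most enriched E2F1 regions by p-value in both lines. By ratio alone it held rank 428 in hTERT-RPE1 and rank 657 in U2OS cells. The order by ratio does not weigh how many sequences a ratio rests on.

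The summits of these regions lay 392 bp upstream of the SLBP TSS in hTERT-RPE1 and 334 bp upstream in U2OS cells, 58 bp apart. Both regions covered the TSS and overlapped by 874 bp. If the RefSeq start is near the TSS used here, the summits fall outside the SLBP sequence printed above, which reaches 250 bp upstream. The pile of reads at the summit was 105 in hTERT-RPE1 and 55 in U2OS cells, exceeded by 0.0238% and 0.121% of all listed regions. After scaling for depth, the ratio in hTERT-RPE1 cells was 1.24 times that in U2OS cells, with a 95% exact interval of 0.473 to 3.18 for the ratio of the ratios. The interval holds 1, so a difference between the lines at SLBP was not detectable at this depth.

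At the CASP8AP2 promoter, E2F1 had 133 ChIP and 10 IgG sequences in hTERT-RPE1 cells, with a ratio of 12.2 (95% exact interval 7.01 to 28.4). The region spans 871 bp, from 375 bp upstream to 495 bp downstream of the TSS. In U2OS cells E2F1 had 45 ChIP and 7 IgG sequences, with a ratio of 5.75 (2.88 to 16.9), in a region of 408 bp from 343 bp upstream to 64 bp downstream. By p-value these regions held rank 19 in hTERT-RPE1 and rank 306 in U2OS cells, and by ratio rank 2169 and rank 4774. Both summits lay at the same base, 145 bp upstream of the TSS. The palindromic match in the CASP8AP2 sequence above stands at the same distance from the RefSeq start, 148 to 139 bp before it. Whether the RefSeq start and the TSS used here are the same base was not tested, because they come from different builds. The depth-scaled ratio in hTERT-RPE1 cells was 1.83 times that in U2OS cells, with an interval of 0.558 to 5.71. This interval holds 1 too. Of the 10 pairs of promoter and antibody listed in both lines, 9 had such an interval, without adjustment over the pairs. The compared regions overlapped in 7 of the 10, by 39 to 874 bp, all with such an interval. They differed in extent between the lines, so these values are only partly for the same stretch of DNA. With the CASP8AP2 antibody at the NPAT promoter, the overlap was 39 bp and the summits lay 384 bp apart. In the other pairs the regions did not overlap.

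**Figure D1:**
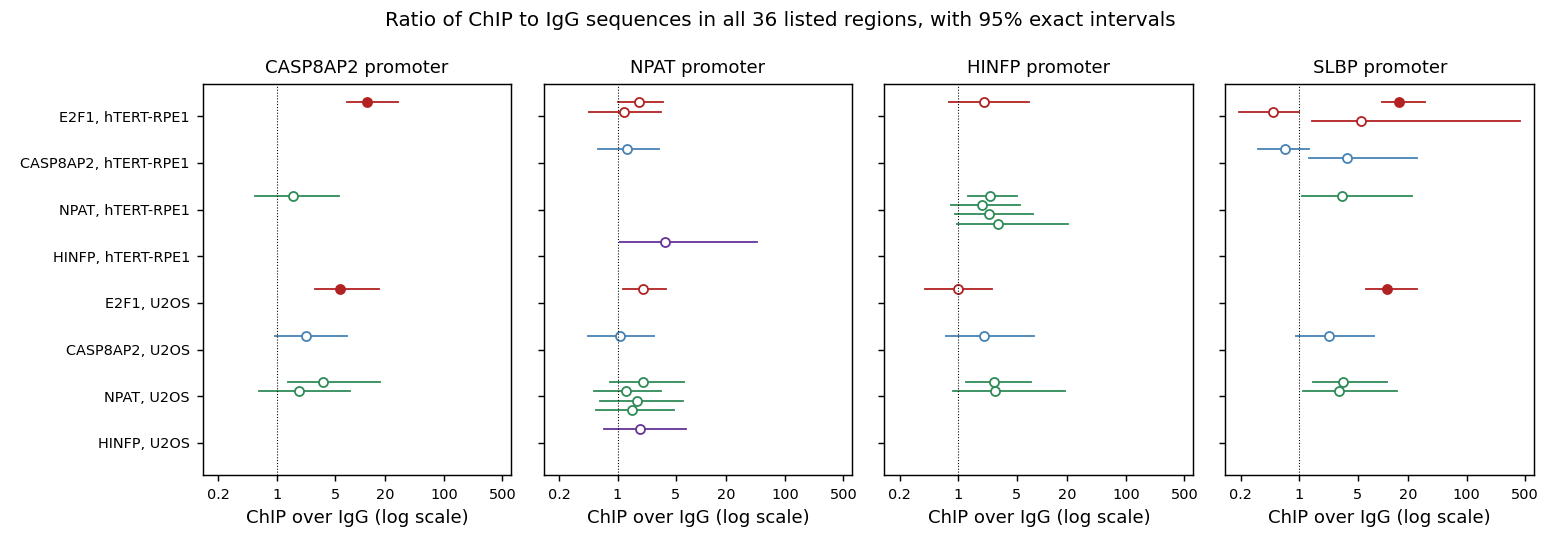
ChIP over IgG ratio of all 36 listed regions on a log axis, by promoter and library. Points are ratios with 1 added to both counts, and lines are 95% exact binomial intervals without added counts or depth scaling. Filled points are significant regions, and the dotted line marks 1. The 4 filled points, E2F1 at CASP8AP2 and SLBP, lie between 5.75 and 15.6.

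At the NPAT promoter, which is shared with ATM, E2F1 collected many reads in both precipitations. E2F1 had 33 ChIP and 18 IgG sequences in hTERT-RPE1 cells, with a summit 14 bp upstream of the NPAT TSS and a ratio of 1.79 (95% exact interval 1.00 to 3.46). In U2OS cells it had 39 ChIP and 19 IgG sequences, with a summit 89 bp upstream and a ratio of 2.0 (1.16 to 3.76). The pile at the summit, 19 and 21 reads, was exceeded by 1.17% and 0.910% of all listed regions, but a higher ratio was found in 65.0% and 40.4% of them. The IgG density was 33.7 sequences per kb in hTERT-RPE1 and 30.4 in U2OS cells, against medians of 15.0 and 18.9 over all E2F1 regions. In the RefSeq table, the nearest ATM start is 429 bp from that of NPAT, so both starts fall in the window and the reads cannot be given to 1 of the genes. The deposited p-values were 0.0294 and 0.00216. With a one-sided exact binomial test, Benjamini-Hochberg adjusted over all regions of the library, the adjusted p was 0.110 in hTERT-RPE1 and 0.0413 in U2OS cells. An adjusted p under 0.05 with a fold change above 2 was found in 17.8% and 9.91% of all E2F1 regions, in the same order. A second E2F1 region of hTERT-RPE1 cells lay 459 bp downstream of the NPAT TSS, with 11 ChIP and 9 IgG sequences.

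E2F1 was also listed at the HINFP promoter, but close to background. It had 13 ChIP and 6 IgG sequences in hTERT-RPE1 cells, with a summit 41 bp downstream of the HINFP TSS and a ratio of 2.0 (95% exact interval 0.768 to 6.95). In U2OS cells it had 11 ChIP and 11 IgG sequences, with a summit 153 bp upstream and a ratio of 1.0 (0.393 to 2.54). Both intervals hold 1. At this depth no enrichment of E2F1 over IgG was detectable at HINFP in either line.

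NPAT had 16 listed regions at these promoters, in 7 of the 8 pairs of promoter and line, and none was significant. The ratios ran from 1.27 to 3.60, with 10 to 35 ChIP sequences per region. At its own promoter NPAT had no listed region in hTERT-RPE1 and 4 in U2OS cells. These had between 11 and 15 ChIP sequences over 6 to 10 of IgG, and none had a fold change above 2. At the HINFP promoter NPAT had regions at nearly the same place in both lines, with summits 232 bp upstream in hTERT-RPE1 and 248 bp upstream in U2OS cells. There it had 35 ChIP and 14 IgG sequences in hTERT-RPE1 cells, with a ratio of 2.40 (95% exact interval 1.31 to 5.03). In U2OS cells 23 ChIP and 8 IgG sequences gave a ratio of 2.67 (1.24 to 7.43). Their piles of 23 and 18 reads were exceeded by 0.135% and 0.465% of all listed NPAT regions, while 48.5% and 38% had a higher ratio. The binomial test gave an adjusted p of 0.0361 in hTERT-RPE1 cells, a level that 20.3% of all NPAT regions of that library reached with a fold change above 2, and 0.123 in U2OS cells, where 2.06% did so. Another 3 NPAT regions of hTERT-RPE1 cells followed downstream of the HINFP TSS, with 11 to 16 ChIP sequences, and in U2OS cells 1 region lay 1095 bp upstream, with 10 ChIP and 3 IgG sequences.

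At the SLBP promoter, the NPAT region of U2OS cells had its summit 332 bp upstream of the TSS, 2 bp from the E2F1 summit. NPAT had 22 ChIP and 6 IgG sequences there, with a ratio of 3.29 (95% exact interval 1.44 to 11.1) and a fold change of 2.68, next to 120 ChIP and 10 IgG sequences of E2F1. The NPAT and E2F1 lists use the same IgG library, so these ratios are not independent. In hTERT-RPE1 cells no NPAT region was listed under the E2F1 summit of SLBP, and the only one in the window lay 1102 bp downstream, with 12 ChIP and 3 IgG sequences. Another NPAT region of U2OS cells lay 774 bp downstream of the SLBP TSS, with 14 ChIP and 4 IgG sequences. At the CASP8AP2 promoter, NPAT had 10 ChIP and 6 IgG sequences in hTERT-RPE1 cells, 127 bp downstream of the TSS. In U2OS cells it had 17 ChIP and 4 IgG sequences 547 bp upstream, with a ratio of 3.60 (1.39 to 17.4), and 10 ChIP and 5 IgG sequences 545 bp downstream. A fold change above 2 was found in 4 of the 6 NPAT regions at these promoters in hTERT-RPE1 cells and in 5 of 10 in U2OS cells, near the 57.3% and 43.7% of all listed NPAT regions.

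CASP8AP2 had 7 listed regions, none significant, with 11 to 17 ChIP sequences each. At its own promoter no CASP8AP2 region was listed in hTERT-RPE1 cells. In U2OS cells the region at its own promoter had 17 ChIP and 7 IgG sequences, a summit 484 bp upstream of the TSS and a ratio of 2.25 (95% exact interval 0.957 to 6.93). It overlapped the upstream NPAT region of the same line, with summits 63 bp apart. At the SLBP promoter of U2OS cells, CASP8AP2 had 15 ChIP and 6 IgG sequences inside the E2F1 region, 155 bp upstream of the TSS, with a ratio of 2.29 (0.917 to 7.86). In hTERT-RPE1 cells it had 15 ChIP and 23 IgG sequences 725 bp downstream of the SLBP TSS, a ratio of 0.667, and 14 ChIP and 3 IgG sequences 1822 bp downstream. Between the regions with the most ChIP sequences, the depth-scaled ratio of CASP8AP2 at SLBP in hTERT-RPE1 cells was 0.268 times that in U2OS cells, and its interval of 0.0686 to 0.934 was the 1 of the 10 that excluded 1. These regions did not overlap, with summits 880 bp apart, so the values are not for the same stretch of DNA. The E2F1 list of the same line also had fewer ChIP than IgG sequences in this part of SLBP, with 10 ChIP and 22 IgG sequences 650 bp downstream. The IgG density there was 82.7 sequences per kb in the E2F1 list and 50.3 in the CASP8AP2 list. Both lists rest on the same IgG library. Another E2F1 region of SLBP in these cells, 1797 bp upstream, had 10 ChIP and 1 IgG sequences and a ratio of 5.5, with an interval from 1.42 to 434. At the NPAT promoter CASP8AP2 had 16 ChIP and 12 IgG sequences in hTERT-RPE1 and 12 ChIP and 11 IgG sequences in U2OS cells, 1260 and 876 bp upstream of the NPAT TSS, on the ATM side. At the HINFP promoter it was listed in U2OS cells alone, with 11 ChIP and 5 IgG sequences.

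HINFP was listed at the NPAT promoter and at none of the other 3. It had 10 ChIP and 2 IgG sequences in hTERT-RPE1 cells, with a summit 1231 bp upstream of the NPAT TSS, on the ATM side, and a ratio of 3.67 (95% exact interval 1.07 to 46.9). In U2OS cells it had 12 ChIP and 6 IgG sequences 1450 bp upstream, with a ratio of 1.86 (0.695 to 6.49). A higher ratio was found in 31.3% and 53.0% of all listed HINFP regions. HINFP had no listed region within 2 kb of its own TSS in either line. The nearest significant HINFP regions lay 14108 bp upstream of it in hTERT-RPE1 cells, with 48 ChIP and 3 IgG sequences, and 14081 bp upstream in U2OS cells, with 26 ChIP and 2 IgG sequences. In the RefSeq order of genes on the later build, C2CD2L is the neighbor upstream of HINFP, and these regions were not assigned to a gene. The HINFP lists are the shortest, with 64340 and 39603 regions, so an empty window there says only that no pile reached 8 reads. Over all antibodies, 9 of the 32 pairs of promoter and library had no listed region.

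The E2F1 regions of CASP8AP2 and SLBP were also set beside the listed regions within 100 kb of the TSS. Around SLBP, hTERT-RPE1 cells had 28 other E2F1 regions with a median ratio of 2.31 and a highest of 6.5, all under the ratio of 15.6 at the promoter. In U2OS cells only 4 others were listed, and 1 of them exceeded the promoter, with a ratio of 15.5 from 30 ChIP and 1 IgG sequences. That region was also significant in hTERT-RPE1 cells, with 34 ChIP and 6 IgG sequences, and its summit lay 9206 bp upstream of the SLBP TSS in both lines. TMEM129 and TACC3 are the neighbors of SLBP on that side in the RefSeq order of genes. Around CASP8AP2, 8 other E2F1 regions were listed in hTERT-RPE1 cells, with at most 21 ChIP sequences each, and none in U2OS cells. A higher ratio than at the CASP8AP2 promoter was found in 2 of the 8, 1 of which was significant, with 21 ChIP and 0 IgG sequences, 65713 bp downstream. Around HINFP the E2F1 lists held their nearest significant region 25880 bp upstream in hTERT-RPE1 cells, with 87 ChIP and 13 IgG sequences, and 25914 bp upstream in U2OS cells, with 50 ChIP and 7 IgG sequences. In the RefSeq order H2AX, the gene of a histone H2A variant, lies on that side of HINFP. Around NPAT, no other E2F1 region within 100 kb was significant in either line, and the nearest significant summit was 275888 bp away in hTERT-RPE1 and 275873 bp away in U2OS cells.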

How the data were processed

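ChIP libraries were sequenced and mapped to NCBI36 (hg18 in the submitters' processing notes) by the authors, who called regions in each library. The aligner, the caller and the handling of duplicates are not given in the sources used here. The deposited counts are ChIP and IgG sequences per region, without normalization. The signal deposited as height is the number of reads at the summit. The fold change deposited by the authors is a ratio, (ChIP + 1) / (IgG + 1) times a constant of the library between 0.815 and 1.17, whose inverse served as the depth of ChIP over IgG. The p-value is the caller's, as deposited. Library totals, and so total depth, are unknown. At most 6 regions per library had 0 ChIP sequences despite their height.

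Samples were grouped by title. TSS positions on NCBI36 came with the choice of genes, and strands and sequences from RefSeq tables of GRCh38.p14, where all 4 symbols matched. No position was moved between builds, and other genes were not tested for lack of NCBI36 positions. Genes, window and tests were chosen with earlier results of these data known. The named genes were those 4 with ATM, and C2CD2L, TMEM129, TACC3 and H2AX were added after the values were seen. Intervals were Clopper-Pearson (95%) and, between lines, exact conditional odds ratio intervals. They cover counting error only, since reads without molecular identifiers are not independent molecules. The one-sided exact binomial test ran over every listed region with Benjamini-Hochberg adjustment. Regions were listed for their pile of ChIP reads, so the test reuses counts that selected them. A run on simulated counts left this selection out and does not cover it. The interval between lines served as the only comparison of the lines, for the 10 pairs of promoter and antibody listed in both, without adjustment over the pairs, and factors were not compared by a test. Alternatives were other windows (1 kb, 5 kb, overlap by at least 1 bp), limits (p under 1e-10, fold above 5, adjusted p under 0.05), added counts (0.5, 5), depth scaling and the region with the nearest summit, and ranking by p-value was added later. The work was done in Python 3.11.15 with scipy 1.17.1, numpy 2.4.6 and pandas 2.3.3, and plots were drawn with matplotlib 3.10.9.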

Additional observations from a re-analysis of the deposited data

How the results depend on the processing

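The number of promoters with a significant region stayed within 1.5 times of the reported one in 46 of 48 comparisons. With the antibodies against CASP8AP2, NPAT and HINFP the reported number was 0 in both lines. The narrower window and the stricter limits could not change a 0, so those comparisons do not test the result. With a p-value under 1e-10, E2F1 in U2OS cells had 1 promoter, SLBP, in place of 2, because the p-value at CASP8AP2 was 6.03e-09. With the adjusted binomial p under 0.05 as the limit, NPAT in hTERT-RPE1 cells had 1 promoter, HINFP, in place of 0, and E2F1 in U2OS cells had 3 in place of 2, with NPAT added. With summits within 1 kb, promoters with a listed region fell from 2 to 1 for CASP8AP2 in hTERT-RPE1 cells, and from 1 to 0 for HINFP in each line. The other 21 of 24 comparisons of listed promoters stayed within 1.5 times. All 92 alternative ratios stayed inside the interval of the reported region. Most of them reuse the counts that gave the interval, so this is no independent support. Ranks among all regions depended on the measure: by p-value in place of ratio, SLBP moved from 428 to 1 and CASP8AP2 from 2169 to 19 for E2F1 in hTERT-RPE1 cells, and from 657 to 22 and from 4774 to 306 in U2OS cells. No paired analysis was possible because each antibody had 1 library per line and the labels carry no replicate numbers, and no library could be left out for the same reason. Of the 32 regions that were not significant, with 10 to 39 ChIP sequences each, 21 had an interval that holds 1. These intervals are for the ratio before depth scaling, where no enrichment stands at the depth of ChIP over IgG, not at 1. For NPAT in U2OS cells that depth was 1.23. The NPAT region 774 bp downstream of the SLBP TSS in U2OS cells had an interval from 1.10 to 14.6. It holds 1.23 but is not among the 21. For E2F1 in hTERT-RPE1 cells the depth was 1.06. The E2F1 region 14 bp upstream of the NPAT TSS in these cells, with an interval from 1.003 to 3.46, holds 1.06 but is not among the 21 either. The E2F1 region 650 bp downstream of the SLBP TSS, with an interval from 0.192 to 1.0003, is among the 21 but lies below 1.06.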
